A study of Mus musculus with 10 samples.

Results

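Gene-level read counts were examined in the 5 libraries titled CA3 AAV-shRNA(scramble) 1 to 5, out of 10 libraries in the series. They were chosen by title alone, and all 18453 genes of each count table were used. The tissue was CA3 of C57BL/6J mice whose CA3 had received AAV-shRNA(scramble), an adeno-associated virus with a scrambled hairpin, on both sides by stereotaxic injection. These libraries are therefore a baseline with virus, hairpin and surgery, not untreated tissue. The remaining 5 libraries carried a hairpin against Mef2c and are not used here. A label gives all mice as male, while the injection protocol speaks of either sex, and no age is given in the sources used here. No label states that each library is a separate animal, so the spread between the 5 may be partly technical. Libraries 1 to 5 are named by their title numbers, which carry no order.

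In the hippocampus, dentate granule cells contact CA3 pyramidal neurons through mossy fibres, and CA3 pyramidal neurons send Schaffer collaterals to CA1. These cells are glutamatergic, use AMPA, NMDA and kainate receptors, and are contacted by local GABAergic interneurons. A bulk sample also holds astrocytes, oligodendrocytes, microglia and vessels. The choroid plexus, the leptomeninges, neighbouring hippocampal fields and overlying cortex lie close to the dissection.

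Total counts lay between 14701928 and 15637076 per library and averaged 15055829 ± 352983 (SD, n = 5). At this depth, 3 counts correspond to between 0.192 and 0.204 CPM, a unit that scales each count to its library total. Of the 18453 genes, 13306 (72.1%) reached 1 CPM in all 5 libraries and 598 had no count in any. No pair of libraries was a duplicate: chi-square per degree of freedom between their counts lay between 4.25 and 13.5. Libraries 1 and 5 were closest, with 7 genes at least 2-fold apart among those averaging at least 5 CPM, and libraries 3 and 4 were farthest, with 109. Several gene groups differed strongly between libraries, above all choroid plexus genes (low in libraries 2 and 3) and interferon-stimulated genes (high in libraries 2 and 3). Their values are given with each group.

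Mitochondrially encoded and neuronal transcripts led the abundance ranks. Levels of different genes were compared in TPM, the usual unit of counts divided by the exon length of the gene and scaled to the same sum in every library. The 7 highest genes were mitochondrial, led by mt-Co1, a subunit of cytochrome c oxidase, at 37454 ± 2779 TPM (SD, n = 5). mt-Cytb of respiratory complex III followed at 22838 ± 1409 TPM, and mt-Nd1 of complex I at 20051 ± 1882 TPM. In libraries 1 to 5, mt-Co1 stood at 14380.3, 15126, 12569, 13114 and 13703 CPM. Library 2 was highest and library 3 lowest, and the 13 mitochondrial genes together showed the same order at the ends, with 14.6% of TPM in library 2 and 11.7% in library 3. They held 12.998% ± 1.05 of TPM (SD, n = 5) and 3.84% ± 0.291 of counts.

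Mitochondrial genes did not stand at like levels. mt-Atp6, mt-Co2, mt-Co3, mt-Nd3 and mt-Nd4l lay between 418 and 1032 TPM, far below mt-Co1. Between 99.0% and 99.9% of the length of these 5 transcripts is matched at 98% identity or more by a transcript of another annotated gene, in stretches of at least 100 bases. The matched share was 31.3% for mt-Co1, 63.6% for mt-Nd4 and 0.0% for mt-Cytb, mt-Nd1, mt-Nd2, mt-Nd5 and mt-Nd6. mt-Atp8, at 112 ± 41.5 TPM, was low with a matched share of 0.0%. The levels of genes with such copies are uncertain, since the counting may have split or dropped their reads, and this was not tested.

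The highest nuclear gene per length was Cpe, carboxypeptidase E, a processing enzyme of peptide hormones and neuropeptides, at 4198 ± 169 TPM (SD, n = 5). Nrgn, the calmodulin-binding postsynaptic protein neurogranin, followed at 3641 ± 218 TPM. Eef1a1, a translation elongation factor, stood at 3410 ± 169 TPM, with copies matching 79.4% of its transcript. Ncdn, neurochondrin, stood at 3211 ± 218 TPM, and the calmodulin genes Calm2 and Calm3 at 3157 ± 78.5 and 3100.2 ± 219 TPM. These last 4 neighbours in rank did not separate beyond their spread. The rest of the top 20 by TPM were Ttr, Apoe, Camk2a, Cst3, Ddn, Hpca and Hsp90ab1, between 2372 and 3022 TPM. Camk2a is the alpha subunit of the calcium/calmodulin kinase of excitatory synapses, and Hpca is hippocalcin, a calcium sensor of hippocampal neurons. With the length of the longest transcript in place of all exons, 17 of these 20 genes stayed in the top 20.

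**Figure D1:**
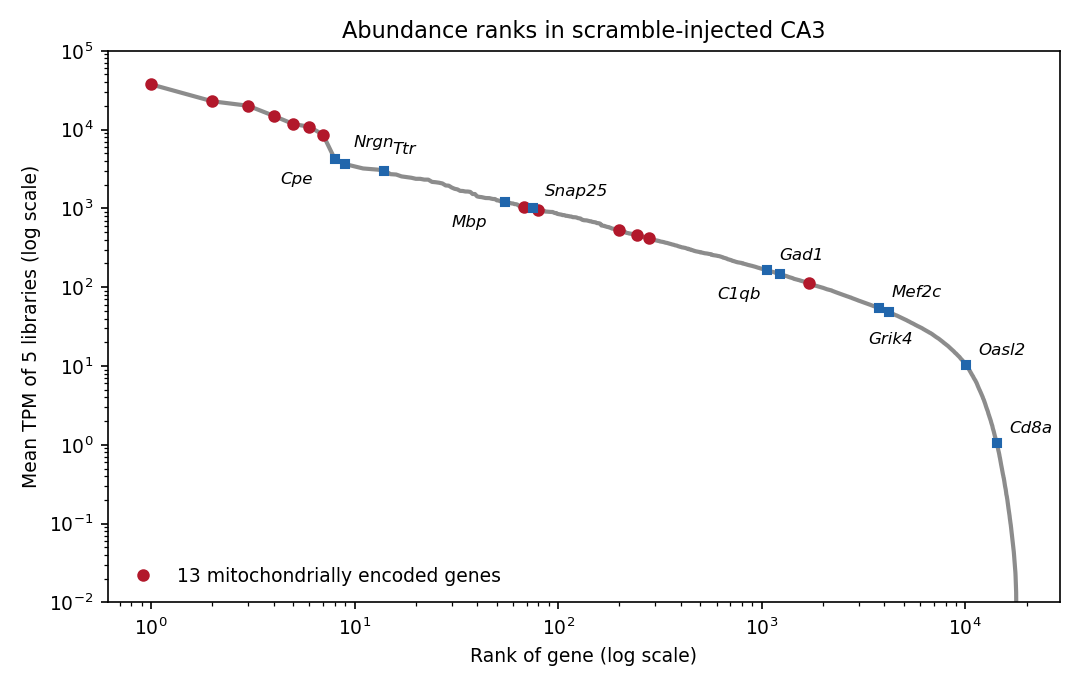
Mean TPM of 5 scramble libraries (vertical axis, log scale) against abundance rank (horizontal axis, log scale) for all genes above 0, with mitochondrially encoded genes as red circles and some genes of the text as blue squares. Ranks 1 to 7 are mitochondrial, Cpe is at rank 8 with 4198 TPM, Grik4 at rank 4215 with 48.1 TPM and Cd8a at rank 14276 with 1.05 TPM.

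Counts were spread over many genes. The 10 genes with most counts held 5.10% ± 0.256 of all counts (SD, n = 5) and the top 1000 held 48.5% ± 0.244. mt-Co1, mt-Cytb, Camk2a, mt-Nd5, mt-Nd1, mt-Nd4, mt-Nd2, Slc1a2 and Ncdn were 9 of these 10. Slc1a2 encodes the main astrocytic glutamate transporter. Camk2a had the most counts of any nuclear gene, at 4919, 4369, 4703, 4817 and 5076 CPM in libraries 1 to 5. Library 2 was lowest and the highest library exceeded it 1.16-fold.

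Among the 100 most abundant nuclear genes by TPM were 5 of the 15 synaptic vesicle genes and 5 of the 19 astrocyte markers. They also held 4 of the 84 genes of the cytosolic ribosome and 4 of the 80 nuclear genes of the respiratory chain. Of the 10 excitatory neuron and 14 chaperone genes, 3 each were among them. In all, 18445 genes had a known length, mitochondrial ones included. Another 67 were in none of the 38 gene lists. Of 15 synaptic vesicle genes all reached 1 CPM in every library, with a median of 728 ± 29.4 TPM (SD over libraries, n = 5). Cplx2, a complexin that holds vesicles ready for fusion, stood at 1520.0 ± 90.5 TPM, Dnm1, the dynamin of vesicle retrieval, at 1369 ± 52.5 TPM, and Snap25, a SNARE of vesicle fusion, at 1009.65 ± 35.8 TPM. The 15 glycolysis genes had a median of 514 TPM, from Gapdh at 71.6 to Aldoa, an aldolase, at 2070.0 TPM. Gapdh is not a low gene in most tissues. Transcripts of 74 other genes, its pseudogenes among them, match 35.7% of its longest transcript, which has 3289 bases. The matched share of shorter Gapdh transcripts was not computed and may be larger. The 84 cytosolic ribosomal protein genes had a median of 234 TPM and the 80 nuclear respiratory chain genes a median of 159 TPM.

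Markers of every major brain cell class were present, with pan-neuronal, astrocyte and excitatory neuron markers highest by median. The median over 15 pan-neuronal markers was 407 ± 17.0 TPM, over 10 excitatory markers 291 ± 15.9 and over 17 inhibitory markers 93.4 ± 4.06 (SD over libraries, n = 5). Among glia it was 296 ± 11.8 TPM for 19 astrocyte markers, 173 ± 37.0 for 14 oligodendrocyte markers, 40.7 ± 4.97 for 18 microglia markers and 28.4 ± 2.53 for 12 markers of oligodendrocyte precursors. The 13 endothelial markers had a median of 28.2 ± 2.59 TPM and the 8 mural cell markers 23.6 ± 3.42. In bulk tissue, the number of cells of a type and the RNA per cell cannot be told apart, so these levels give no cell proportions. The order of the astrocyte and excitatory medians depends on the gene length used: with the longest transcript they were 417 and 240 TPM.

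Genes foreign to brain gave the background level. The 10 measured markers of other organs, such as Ins2 of pancreas and Sftpc of lung, had a median of 0.844 TPM and lay between 0.0955 and 3.51. Of 218 olfactory receptor genes, 78 had no count in any library and 2 reached 1 CPM in all 5, and their median was 0.0209 TPM. The 11 measured markers of infiltrating leukocytes, with a median of 1.22 TPM, stood near that background.

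**Figure D2:**
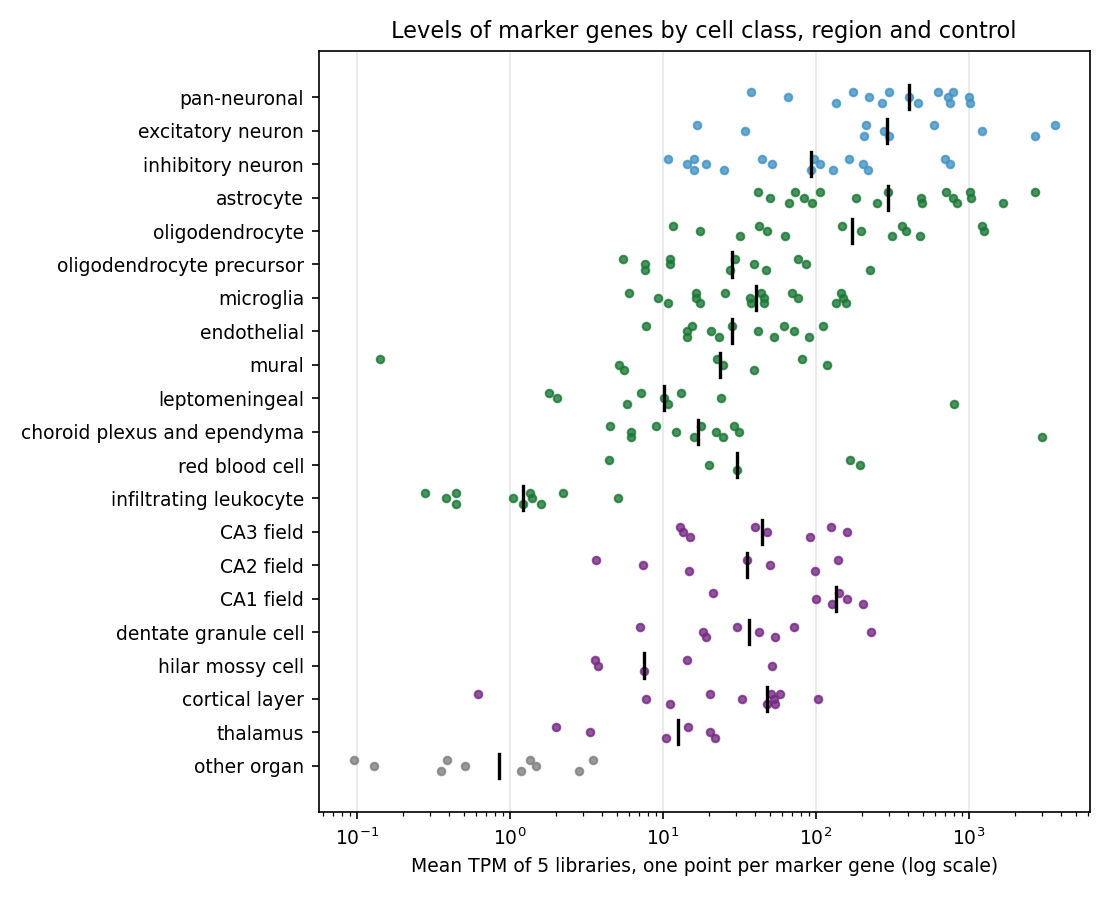
Mean TPM of 5 libraries (horizontal axis, log scale) for each marker gene, grouped by cell class, hippocampal field or region, and other organs, with a black bar at the median of each group. The pan-neuronal median is 407 TPM and that of other-organ genes 0.844 TPM.

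Excitatory neuron genes of the cortical and hippocampal type were high. Slc17a7, the vesicular glutamate transporter VGLUT1, stood at 1221 ± 64.3 TPM, with 1596, 1423, 1651, 1566 and 1604 CPM in libraries 1 to 5. Library 2 was lowest. Slc17a6, the VGLUT2 transporter of thalamic and other subcortical neurons, stood at 16.6 ± 2.90 TPM, and the ratio of Slc17a7 to Slc17a6 was 75.8 ± 16.4 (SD, n = 5). Neurod6 and Neurod2, transcription factors of forebrain pyramidal cells, stood at 301 ± 17.3 and 280.1 ± 24.7 TPM. Gad1, the GABA-synthesising enzyme of inhibitory neurons, stood at 284, 315, 299, 291 and 301 CPM, a 1.11-fold range. Per length, Slc17a7 exceeded Gad1 by 7.47 ± 0.625 fold (SD, n = 5), between 6.39 and 7.95. Among interneuron genes, the peptides Sst (somatostatin, 753 ± 112 TPM) and Cck (cholecystokinin, 704 ± 36.9 TPM) were highest. Cck is also made by pyramidal cells.

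The field label was checked against markers. CA3 markers were present: Bok, a BCL2-family gene enriched in CA3, stood at 159 ± 19.96 TPM, Spock1, a proteoglycan, at 125 ± 7.001, Cpne4, a copine, at 91.2 ± 4.68 and Grik4, a kainate receptor subunit of CA3 pyramidal cells, at 48.1 ± 6.46 TPM (SD, n = 5). Markers of neighbouring fields were present too, some of them above CA3 markers. The 6 CA1 markers had a median of 135 ± 10.6 TPM, against 44.1 ± 4.48 for the 8 CA3 markers and 36.7 ± 4.32 for the 8 dentate granule cell markers. Medians of different gene lists depend on which genes were listed and are no measure of tissue shares.

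Wfs1, the wolframin gene that marks CA1, was high in every library, with 119, 147, 129, 158 and 171 CPM in libraries 1 to 5. Grik4 stood at 69.2, 74.8, 78.5, 54.1 and 64.8 CPM, and Prox1, the transcription factor that defines dentate granule cells, at 150, 146, 132, 133 and 156 CPM. Per length, Wfs1 exceeded Grik4 3.43 ± 0.889 fold and Prox1 exceeded Grik4 1.51 ± 0.229 fold (SD, n = 5), each in 5 of 5 libraries. Other pairs ran the other way: Bok exceeded Prox1 2.23 ± 0.318 fold, Spock1 exceeded it 1.76 ± 0.189 fold and Cpne4 exceeded it 1.27 ± 0.0555 fold, each in 5 of 5 libraries. Bok and Wfs1 had no fixed order, with Bok higher in 2 of 5. C1ql2, a synaptic organiser secreted by mossy fibres, exceeded Bok 1.46 ± 0.204 fold, also in 5 of 5 libraries. Fibcd1, a CA1 marker, stood above Bok in 1 of 5. These orders of Wfs1, Prox1 and C1ql2 were the same by mean with the longest transcript as length.

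Other neighbouring regions were detected too. Of CA2 genes, Necab2, a calcium-binding protein, stood at 140.1 ± 17.8 TPM, Rgs14, a regulator of G protein signalling, at 99.2 ± 8.69 and Amigo2, an adhesion molecule, at 35.3 ± 3.19. Hilar mossy cell markers had a median of 7.48 TPM, with Calb2, the calcium buffer calretinin, highest at 51.6 ± 12.3 TPM. Calb2 also marks interneurons. The 11 cortical layer genes had a median of 48.0 ± 3.20 TPM, among them Bcl11b at 103 ± 9.13, Fezf2 at 53.7 ± 4.44 and Tbr1 at 51.3 ± 8.13 TPM, all transcription factors of cortical projection neurons and some of them also expressed in hippocampus. The 6 thalamic genes had a median of 12.5 ± 1.79 TPM.

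AMPA receptor genes had the order Gria1, Gria2, Gria3, Gria4 in each of the 5 libraries. Gria1, which encodes the GluA1 subunit, stood at 815 ± 58.3 TPM, Gria2, the subunit that makes the channel calcium-impermeable, at 258 ± 25.1, Gria3 at 106 ± 7.22 and Gria4 at 41.8 ± 3.69 TPM (SD, n = 5). By library, Gria1 stood at 1184, 1194, 1168, 1045 and 1273 CPM. Library 5 was highest and library 4 lowest. By longest transcript, the order was kept, with 690.4, 301, 155 and 37.7 TPM.

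NMDA receptor genes were led by the obligatory subunit Grin1 at 213 ± 13.5 TPM. The glutamate-binding subunits followed as Grin2b at 123 ± 8.50, Grin2a at 88.6 ± 6.75, Grin2c at 68.5 ± 5.93 and Grin2d at 15.8 ± 1.55 TPM, in this order in every library. Grin3a, at 14.3 ± 2.28 TPM, did not separate from Grin2d and had the reverse order by longest transcript, and Grin3b was near background at 0.372 TPM. Among kainate receptor genes, Grik5, the high-affinity GluK5 subunit, stood at 291 ± 17.7 TPM, 6.05-fold above its partner Grik4. Grik3 and Grik2 were equal within their spread at 29.3 ± 1.42 and 29.2 ± 3.45 TPM, and Grik1 was lowest at 6.96 ± 1.28 TPM.

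Among metabotropic glutamate receptors, Grm5, the main postsynaptic group I receptor of hippocampus, stood at 123 ± 13.5 TPM, followed by the presynaptic receptor Grm2 at 73.8 ± 6.48 and Grm3, found on neurons and astrocytes, at 58.7 ± 5.53 TPM. Grm6, the receptor of retinal bipolar cells, had a count in 1 library only. Of the GABA-A receptor genes, Gabra5, which forms extrasynaptic receptors typical of hippocampus, stood at 269.7 ± 21.4 TPM, with 184, 210.5, 187, 174 and 199.7 CPM in libraries 1 to 5. Library 2 was highest and library 4 lowest. From Gabrb2 at 72.7 to Gabrd at 47.7 TPM, neighbours in the order were at most 1.14-fold apart.

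**Figure D3:**
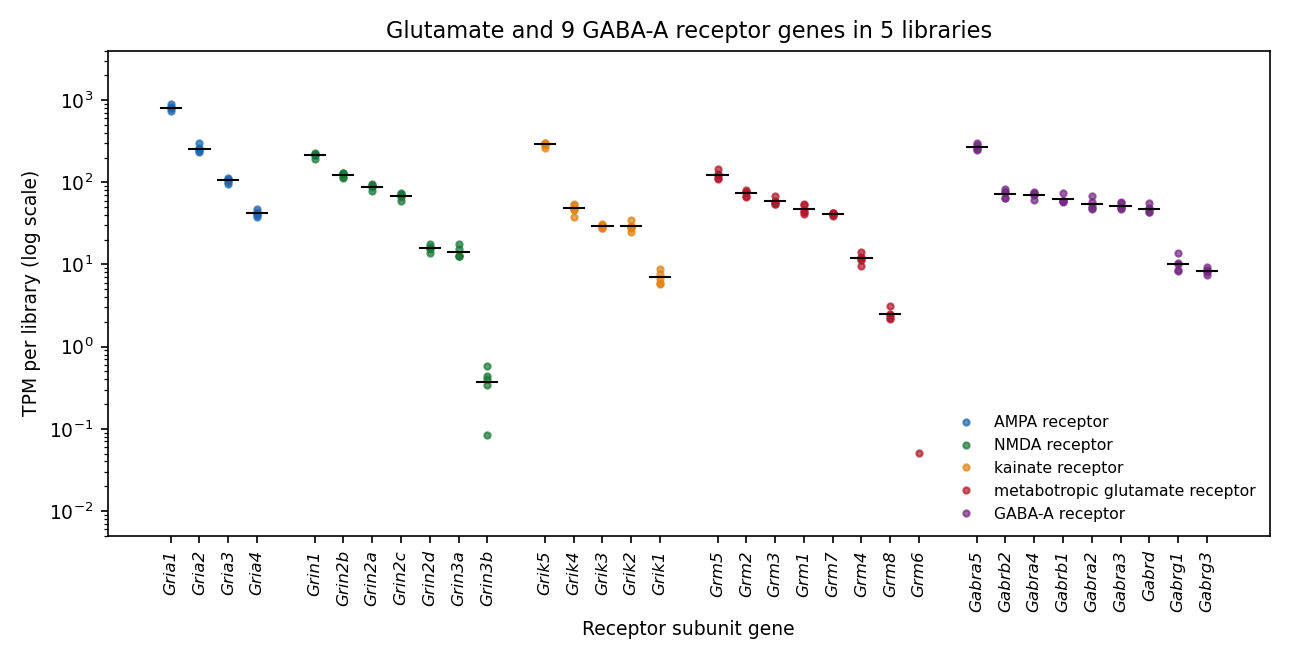
TPM in each of 5 libraries (vertical axis, log scale, 1 point per library above 0, black line at the mean of genes above 0 in all 5) for glutamate receptor genes and 9 GABA-A receptor genes, ordered within family by mean. Gria1 is highest at 815 TPM, and Grm6 had a count in 1 library only.

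Most genes differed little between the 5 libraries. Spread was measured as the coefficient of variation (CV) of CPM after removal of the part that counting alone gives, among the 11613 genes averaging at least 5 CPM. Its median was 6.07%, its 90th percentile 13.9%, and 1377 genes showed no spread beyond counting. In 207 of the 11613 genes (1.78%) the highest library was at least 2 times the lowest, in 79 at least 3 times and in 17 at least 10 times. Low genes carried most of these: 8.56% of genes between 5 and 10 CPM had a 2-fold range, against 0.247% of those between 50 and 500 CPM. Of the 207, library 4 held the highest value for 84, library 3 for 65, library 2 for 41, library 1 for 12 and library 5 for 5. A single group gives no comparison of conditions and no test was run, so these are descriptions.

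Among genes averaging at least 50 CPM, the 10 of smallest CV included a kinase, a chaperonin subunit and a membrane protein. Mapk10, the neuronal JNK3 kinase, stood at 381, 388, 384, 383 and 385 CPM in libraries 1 to 5. Calcoco1, a nuclear receptor coactivator and autophagy receptor, stood at 92.7, 92.5, 93.4, 91.9 and 93.1 CPM. Rtn4, which encodes Nogo, and Cct4, a chaperonin subunit, had ranges of 1.02-fold and 1.03-fold. Synaptic vesicle, pan-neuronal, excitatory, astrocyte, oligodendrocyte, glycolysis and chaperone lists held no member with a 2-fold range. At a share of 1.78% over all genes, 0 members is no sign that these lists are steadier than others, and further lists, such as the NMDA receptor and endothelial ones, also had 0. The median CV beyond counting was 4.70% for synaptic vesicle genes, 6.596% for pan-neuronal, 6.32% for astrocyte and 17.7% for oligodendrocyte markers.

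**Figure D4:**
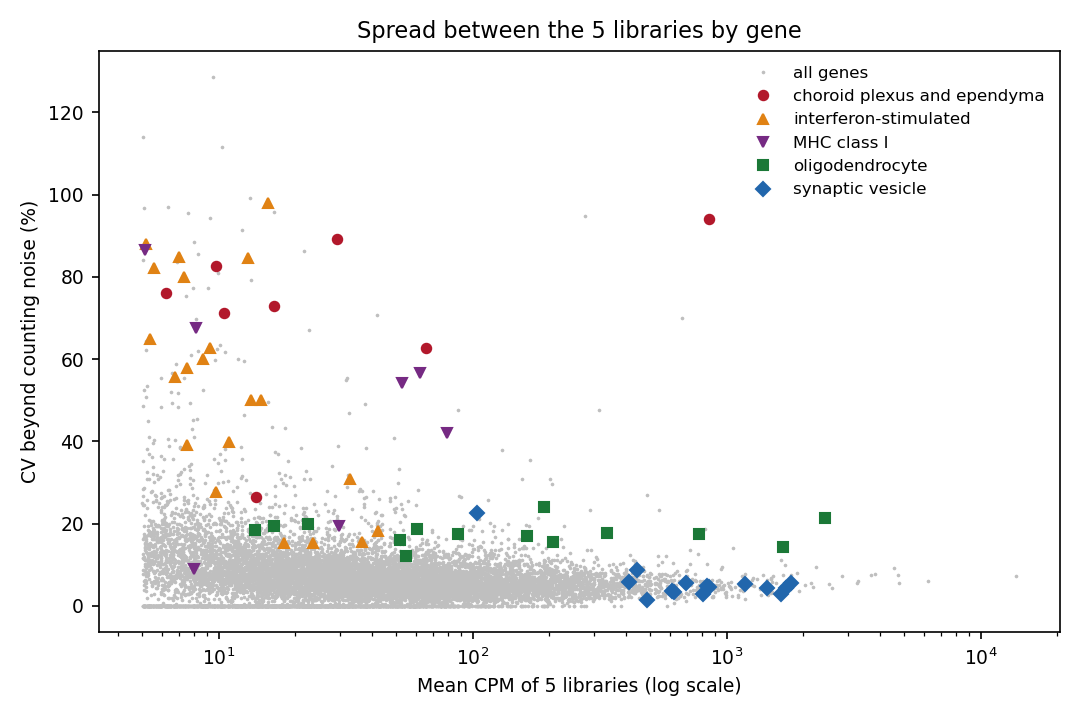
CV beyond counting noise (vertical axis, percent) against mean CPM (horizontal axis, log scale) for the 11613 genes averaging at least 5 CPM in grey, with 5 gene lists coloured. Most choroid plexus, interferon-stimulated and MHC class I genes stand above the cloud. An exception is Ifi27 at 15.5%, near the 90th percentile of all genes (13.9%). Synaptic vesicle genes have a median of 4.70% and reach 22.6% for Stx1a.

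The 15 named genes of largest spread fell into a few groups. Ttr, Clic6, Aqp1, Mfrp, Cldn2, Slc4a5 and Tmem72 were high in libraries 1, 4 and 5 and are, apart from Tmem72 whose role is less clear, known from choroid plexus or other epithelia. Oasl2, Irf7, Igtp, Cd74, H2-Q6, H2-Q7 and Nlrc5, genes of interferon response and antigen presentation, had their highest value in library 3. The remaining gene, Igfn1, stood at 5.24, 0.576, 2.65, 30.7 and 8.23 CPM, high in library 4. Its mean of 9.49 CPM fell to 4.17 without library 4.

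Choroid plexus genes varied most. The choroid plexus is the epithelium that secretes cerebrospinal fluid and borders the hippocampus in the ventricles. Ttr, transthyretin, its hallmark transcript (chromosome 18, 20665280 to 20674321, plus strand, GRCm38), stood at 1539, 63.1, 39.2, 1763 and 865 CPM in libraries 1 to 5. Libraries 1, 4 and 5 were high and 2 and 3 low, a 45.0-fold range, and Ttr reached rank 14 by TPM through the high libraries. Clic6, a chloride channel family member, stood at 55.1, 3.52, 3.45, 56.5 and 28.0 CPM. Folr1, the folate receptor of choroid plexus, stood at 15.8, 0.767, 1.46, 17.9 and 12.7 CPM. Kl, the ageing-related gene Klotho, was less extreme, at 104, 27.1, 23.3, 110.4 and 62.2 CPM.

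All 8 choroid plexus and ependyma genes averaging at least 5 CPM had a 2-fold range, against 1.78% of all genes. In 7 of the 8, libraries 1, 4 and 5 all stood above libraries 2 and 3, a pattern seen in 8.83% of all genes. The exception was Foxj1, the regulator of motile cilia in ependyma, at 15.9, 7.23, 16.4, 15.9 and 14.6 CPM, low in library 2 only. Summed TPM of the 12 listed genes was 5632, 285, 235, 6579 and 3280.3. Of the mean sum of 3202 TPM, Ttr alone held 3022, so the sum mainly restates Ttr. The mean sum lay between 2358 without library 4 and 3944 without library 3. Between 7 and 9 listed genes had a 2-fold range with a library left out. Enpp2, autotaxin, which choroid plexus and oligodendrocytes express, showed the same pattern at 1012, 197, 201, 1229.95 and 698 CPM. It was named after its values were seen. Only Ttr and Enpp2 combined a mean above 500 CPM with a 2-fold range.

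Interferon-stimulated genes were high in libraries 2 and 3. Type I and type II interferons act through STAT factors to raise these antiviral and antigen-presentation genes, which resting brain tissue expresses weakly. Oasl2, an oligoadenylate synthetase-like gene (chromosome 5, 114896936 to 114912234, plus strand, GRCm38), stood at 3.96, 31.1, 33.8, 4.94 and 4.49 CPM in libraries 1 to 5. Ifit3, an antiviral RNA-response protein, stood at 3.96, 20.5, 28.8, 5.68 and 6.12 CPM. Ifit1, its relative, stood at 2.48, 13.9, 12.997, 2.94 and 2.45 CPM. Libraries 2 and 3 did not overlap the other 3 in any of these genes, and Ifit1 was highest in library 2.

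Of the 21 interferon-stimulated genes averaging at least 5 CPM, 16 had a 2-fold range, against 1.78% of all genes, and 18 had their highest value in library 3, against 25.0%. In 19 of the 21, libraries 2 and 3 both stood above libraries 1, 4 and 5, which held for 10.4% of all genes. Ifi27 was an exception among these, at 41.2, 31.7, 41.8, 39.4 and 29.0 CPM. Irf7, a transcription factor that amplifies the response, stood at 1.95, 6.97, 12.5, 2.67 and 1.84 CPM, and its mean of 5.18 fell to 3.36 without library 3. Cxcl10, a T-cell chemokine, stood at 0.269, 5.50, 5.84, 0.334 and 0.340 CPM. In libraries 1, 4 and 5 these Cxcl10 levels are few counts, and without library 3 its mean fell from 2.46 to 1.61 CPM. Summed TPM of the 33 measured genes was 379.8, 666, 866, 403 and 341. With a library left out, between 11 and 16 listed genes had a 2-fold range, the lowest number without library 3.

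Promoters of the interferon-stimulated list were searched for an interferon response element-like motif, the letters GAAA, any 2 bases and GAAA again. Both strands were searched, counting overlapping matches, in windows from 250 bases before to 50 after the RefSeq start site (300 bases, GRCm38.p6). Listed genes were searched whether or not they varied, so the share with the motif says nothing about the variation between libraries. Shown here are the 250 bases before the start site for Ifit3, Ifit1, Gbp2 (a guanylate-binding GTPase) and Bst2 (tetherin, which retains budding virus), picked because they hold the motif. Each is written 5′ to 3′ on the strand of the gene, with every match in capitals. Capitals that begin with TTTC are the motif on the opposite strand.
Ifit3: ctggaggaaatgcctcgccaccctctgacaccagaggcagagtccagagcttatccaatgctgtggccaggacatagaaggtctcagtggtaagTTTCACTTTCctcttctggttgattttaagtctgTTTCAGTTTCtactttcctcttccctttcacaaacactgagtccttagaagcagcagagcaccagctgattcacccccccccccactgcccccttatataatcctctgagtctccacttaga
Ifit1: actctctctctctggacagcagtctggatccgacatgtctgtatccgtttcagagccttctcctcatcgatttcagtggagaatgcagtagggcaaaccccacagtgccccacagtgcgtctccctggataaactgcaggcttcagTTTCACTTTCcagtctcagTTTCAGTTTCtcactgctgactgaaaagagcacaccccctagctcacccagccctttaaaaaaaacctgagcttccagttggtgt
Gbp2: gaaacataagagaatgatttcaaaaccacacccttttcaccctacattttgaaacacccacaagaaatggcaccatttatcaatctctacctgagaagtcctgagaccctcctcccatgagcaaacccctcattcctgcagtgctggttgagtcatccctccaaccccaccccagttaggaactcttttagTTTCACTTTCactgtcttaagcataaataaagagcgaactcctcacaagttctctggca
Bst2: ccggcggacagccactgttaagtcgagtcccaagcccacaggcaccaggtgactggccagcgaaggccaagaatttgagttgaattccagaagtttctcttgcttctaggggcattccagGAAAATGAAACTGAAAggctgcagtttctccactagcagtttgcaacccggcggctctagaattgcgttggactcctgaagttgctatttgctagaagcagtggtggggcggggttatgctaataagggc
They lie at chr19:34583279-34583528 (Ifit3, plus strand), chr19:34640639-34640888 (Ifit1, plus strand), chr3:142620413-142620662 (Gbp2, plus strand) and chr8:71537473-71537722 (Bst2, minus strand). The matches begin 156 and 122 bases before the start of Ifit3, 104 and 85 before Ifit1, 59 before Gbp2, and 130 and 124 before Bst2, where they overlap. These 4 genes had ranges of 7.26-fold, 5.67-fold, 8.19-fold and 3.66-fold between libraries.

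Of the 33 measured interferon-stimulated genes, 24 were in the promoter table with 28 promoters, of which 16 (57.1%) held the motif, against 3.44% of all 32851 promoters. It was in 2 of 11 microglia promoters (18.2%), 1 of 8 of MHC class I (12.5%), 1 of 11 leptomeningeal (9.09%), 2 of 23 immediate early (8.7%) and 0 of 11 choroid plexus promoters. Of promoters of genes with a 2-fold range 12.5% held it, and 9.33% with the interferon list left out, against 2.61% for genes with a smaller range. Antigen-presentation genes outside that list, such as H2-D1 and B2m, remain in the 9.33% set, so it is not free of interferon-related genes. Oasl2 and Irf7 had no match, which says only that these letters are not in the window. Altogether 4 motifs were searched. The CRE palindrome TGACGTCA and the CArG box matched 0 of the 28 promoters and TATAAA matched 17.9%, against 1.79%, 1.63% and 13.6% of all promoters. For genes with a 2-fold range TATAAA matched 12.5%, the CArG box 2.4% and TGACGTCA 0.481% of promoters. For genes with a smaller range the shares were 6.65%, 1.24% and 3.09%. The 207 genes with a 2-fold range were picked by their spread in these data, and 127 of them averaged between 5 and 10 CPM. A link between any motif and the spread was not tested. A match is a description of sequence and shows no binding.

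MHC class I genes, which present peptides to cytotoxic T cells, were highest in library 3. H2-D1 (chromosome 17, 35262730 to 35267499, plus strand, GRCm38) stood at 43.6, 61.1, 122.8, 39.8 and 42.2 CPM in libraries 1 to 5. B2m, the light chain of the complex, stood at 55.9, 99.1, 128, 55.5 and 56.3 CPM. Of the 7 genes of this list averaging at least 5 CPM, 5 had a 2-fold range, against 1.78% of all genes, and all 7 had their highest value in library 3, against 25.0%. Without library 3, 1 of them had a 2-fold range. Cd74, the class II invariant chain of antigen-presenting cells, stood at 4.30, 7.55, 30.8, 4.74 and 4.22 CPM, and its mean of 10.3 fell to 5.20 without library 3. H2 genes have close relatives, so single H2 levels are uncertain.

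T-cell transcripts were scarce but also highest in library 3. Cd8a, the co-receptor of cytotoxic T cells, stood at 0.201, 0.448, 3.32, 0.334 and 0.272 CPM, and library 1 held 3 counts. Ccl5, a chemokine of T cells, stood at 0.201, 1.02, 3.78, 0.601 and 0.272 CPM. Means without library 3 were 0.314 for Cd8a, from 0.914, and 0.524 for Ccl5, from 1.18 CPM. Summed TPM of the 11 measured leukocyte markers was 12.3, 11.0, 40.9, 7.93 and 5.44, and its mean fell from 15.5 to 9.18 without library 3.

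Most microglial and all listed myelin genes were also highest in library 3. C1qb, a complement component made by microglia, stood at 32.0, 33.1, 64.1, 28.5 and 32.6 CPM. P2ry12, the purinergic receptor of homeostatic microglia, was flat at 27.5, 29.7, 28.1, 26.6 and 26.8 CPM. Of 17 microglia genes averaging at least 5 CPM, 13 had their highest value in library 3, against 25.0% of all genes. A 2-fold range was seen in 2 of the 17, against 1.78% of all genes. Mbp, myelin basic protein, stood at 2271, 2015, 3348, 2374 and 2204 CPM. All 14 oligodendrocyte genes were highest in library 3, against 25.0% of all genes. Library 3 was also highest for 66 of 80 cytosolic ribosomal protein genes and 47 of 75 nuclear respiratory chain genes, against the same 25.0%. It was highest for 13 of 15 glycolysis genes too. The 13 mitochondrially encoded genes together were lowest in library 3, at 11.7% of TPM. Gfap, the filament protein of reactive astrocytes, stood at 389, 511, 703, 393 and 434 CPM. Of the 19 astrocyte markers, however, 5 were highest in library 3, 8 in library 1 and 6 in library 2. The shares of all genes highest in these libraries were 25.0%, 16.5% and 26.7%. The part of these other gene groups in the glial values was not tested.

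Leptomeningeal genes were highest in library 2. Ptgds, the prostaglandin D synthase of leptomeninges and oligodendrocytes, stood at 204, 570.1, 289, 311 and 203 CPM. Col1a2, a fibrillar collagen chain, stood at 16.3, 34.7, 16.4, 23.2 and 15.1 CPM. Slc6a13, the GABA transporter of meningeal cells, stood at 5.04, 11.96, 6.43, 5.55 and 6.26 CPM. Of 6 such genes averaging at least 5 CPM, 4 had a 2-fold range, against 1.78% of all genes, and 5 were highest in library 2, against 26.7%. Without library 2, 0 of them had a 2-fold range. Of 6 mural cell genes 5 were also highest in library 2, where their summed TPM was 349, against 267 to 303 in the other libraries.

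Most immediate early genes were highest in library 4. Immediate early genes are transcribed within minutes of neuronal activity. Egr1 stood at 158, 154, 202, 307 and 185 CPM in libraries 1 to 5, Arc, a regulator of AMPA receptor traffic, at 184, 135, 156, 238 and 192 CPM, and Egr2 at 4.499, 4.48, 5.84, 13.9 and 5.10 CPM. Of 18 immediate early genes, 14 had their highest value in library 4, against 18.6% of all genes. A 2-fold range was seen in 1 of the 18, against 1.78% of all genes, and 1 gene says nothing about the group. Nr4a3, a nuclear receptor of the same class, was flat at 116, 114, 117, 118 and 113 CPM. Jun, another gene of this list, went the other way and was lowest in library 4, at 95.7 CPM against a mean of 113 CPM.

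Cux2, a transcription factor of upper cortical layers, stood at 35.1, 45.7, 38.0, 84.2 and 42.3 CPM, also highest in library 4. Coch, listed as a CA3 gene, stood at 8.66, 7.04, 6.17, 19.8 and 6.39 CPM. Mef2c, a transcription factor of excitatory neurons (chromosome 13, 83504034 to 83667080, plus strand, GRCm38), stood at 166, 198, 176, 311 and 173 CPM. In all 3, the gap between library 4 and the next exceeded 0.71 of the whole range. Some library stood apart in this way in 6.13% of all genes. Summed TPM of the 11 cortical layer genes was 415, 442, 420, 485 and 441, highest in library 4. Of 10 such genes averaging at least 5 CPM, 5 were highest there, against 18.6% of all genes. Another 3 of the 10 were highest in library 2, against 26.7%. Fezf2 went the other way and was lowest in library 4, at 33.7 CPM against a mean of 39.0 CPM. The part of the cortical genes in the other library 4 values was not tested.

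**Figure D5:**
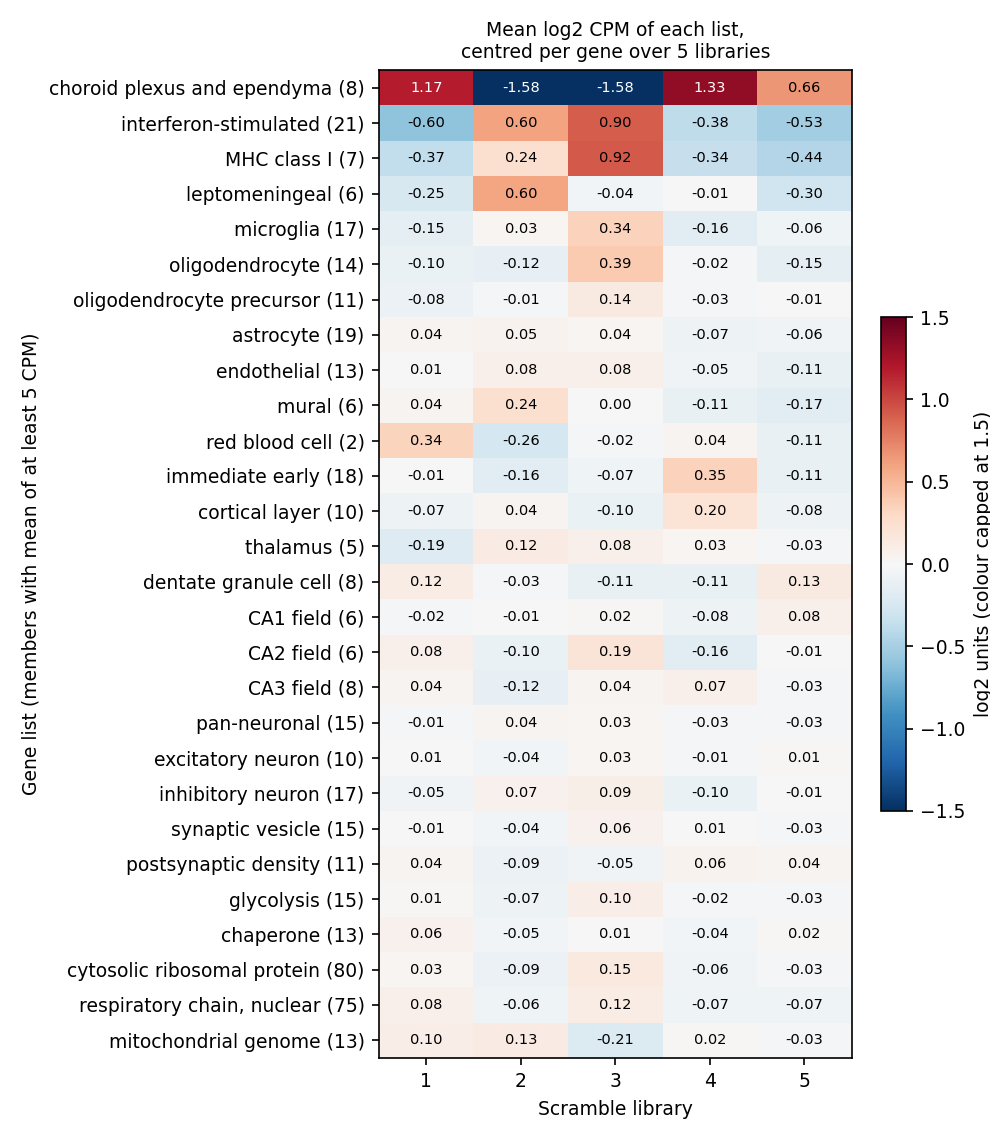
Mean log2 CPM of the members of each gene list averaging at least 5 CPM, each gene centred over the 5 libraries (colour and printed value, log2 units, colour capped at 1.5), by list (vertical axis) and library (horizontal axis). Choroid plexus genes run from -1.58 to 1.33, interferon-stimulated genes from -0.60 to 0.90, and excitatory neuron genes from -0.04 to 0.03.

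Across all genes, the main axes of variation followed the same groups. In a principal component description of log2 CPM, component 1 held 46.9% of the variance, with weights of -0.35, 0.49, 0.58, -0.49 and -0.23 for libraries 1 to 5. Oasl2 and Ifit3 led its positive end and Ttr and Tmem72 its negative end. Component 2 held 23.5% and set library 2 (weight 0.73) against library 3 (-0.67), and component 3 held 17.2% with library 4 at 0.74 and library 1 at -0.60. Of the 207 genes with a 2-fold range, 162 were in none of the gene lists.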

How the data were processed

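RNA of 5 scramble-injected CA3 libraries was measured. Libraries were made from polyadenylated RNA of a Trizol extract and read as pairs of 150 bases, per the labels' protocols. Per the submitters' processing notes the authors used HISAT2 and featureCounts with mm10. Versions, settings, strandedness and annotation were not stated there or in other sources used here, so overlapping and antisense genes cannot be told apart. The authors deposited unnormalized read counts for each gene. Of 18453 Ensembl identifiers, 18445 matched GENCODE M21 (GRCm38) and 18416 of these are protein-coding. The 8 unmatched rows hold 0.00254% of counts. No blank or summary rows were present.

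CPM used the plain library total, and TPM the union of a gene's exons. CV beyond counting is the square root of the variance minus its Poisson part, over the mean, for genes averaging at least 5 CPM. Log2 values used CPM plus 0.5. At 5 CPM counting alone gives a CV of about 11.5%, which covers counting error only, since reads carry no molecular identifiers. Python 3.11.15, pandas 2.3.3, NumPy 2.4.6, R 4.3.3, edgeR 4.0.16 and DESeq2 1.42.0 were used, the last 2 for scaling factors and dispersions only. The spread measure was tested on simulated counts. Copies were sought with blastn among GENCODE transcripts, and promoters came from RefSeq.

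The libraries, the 38 gene lists and all rules were chosen with earlier results of these data known. The rule for named genes takes the top 20 by TPM, the top 10 by counts, the 15 most and 10 least variable genes (clone-like names left out of the former), up to 6 most abundant and 2 most variable members of each list, all members of the field, region and receptor lists, and Mef2c. Of these, the genes with values in every library were picked after their values were seen, as were Enpp2, Nr4a3, P2ry12, Cd8a, Cxcl10, Ifit1, Tmem119 and Gapdh, the gene pairs, the motifs, the component description and the patterns over libraries. Alternatives were TMM and DESeq2 factors, other filters, folds and gene lengths, edgeR dispersions, and leaving out each library. A few genes that meet this rule are left unreported. No comparison between groups was made and no test was run. An exact paired permutation over 5 libraries could not go below p = 0.0625.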

Additional observations from a re-analysis of the deposited data

Results flagged for a closer look

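In 6 of the 38 list sums and 18 of the 73 genes whose values were examined in every library, 1 library lay far from the other 4, meaning that its gap to the nearest value exceeded 0.71 of the whole range. Chance flags about 1 in 20 groups of normal values, and 6.13% of the 11613 genes averaging at least 5 CPM met the same criterion. The 73 genes were picked after their values were seen, so their share says nothing by itself.

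Library 3 was high for the summed TPM of inhibitory neuron genes (2908), oligodendrocyte genes (5936), oligodendrocyte precursor genes (635), microglia genes (1421) and infiltrating leukocyte genes (40.9). It was also high for C1qa (54.5 CPM), C1qb (64.1), Tmem119 (28.1), Mag (271), Mbp (3348), H2-D1 (122.8), Cd74 (30.8), Cd8a (3.32) and Ccl5 (3.78). Tmem119 is a microglial surface gene, and Mag is a myelin adhesion protein. Of the 17 inhibitory neuron genes, 5 were highest in library 3 and 8 in library 2, against 25.0% and 26.7% of all genes. Sst, at 162 CPM in library 3, averaged 753 TPM of the mean inhibitory sum of 2667 TPM.

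Library 4 was high for Mef2c (311 CPM), Cux2 (84.2), Coch (19.8), Egr2 (13.9) and Igfn1 (30.7), and low for Cpe (2407). Library 2 was low for the summed TPM of excitatory neuron genes (8450) and for Foxj1 (7.23 CPM), and high for Slc6a13 (11.96) and mt-Co2 (243). Nrgn and Camk2a, with means of 3641 and 2687 TPM, made up most of the mean excitatory sum of 9190 TPM. Mean log2 CPM of the 10 excitatory genes, centred per gene, was -0.04 in library 2.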

How the results depend on the processing

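No paired analysis was possible because the title numbers could pair these libraries only with those of the other hairpin, which are not used, and no test was run. The number of genes at 1 CPM in all 5 libraries stayed between 12526 (at 2 CPM) and 13948 (at 0.5 CPM), and between 13354 and 13366 with a library left out. The 10 genes with most counts held 2.94% of counts when mitochondrial genes were left out, and between 5.01% and 5.17% with a library left out. Genes with a 2-fold range numbered 566 at a mean of 2 CPM or more, 80 at 10 CPM or more and 2457 with a count in every library, 1059 at 1.5-fold and 79 at 3-fold. They numbered 206 with TMM or DESeq2 factors, and between 151 and 192 with a library left out. The median CV beyond counting was 6.06% with TMM or DESeq2 factors, 6.35% and 5.78% for genes at 2 or 10 CPM or more, 6.78% with a count in every library, and between 5.06% and 6.28% with a library left out. The edgeR tagwise dispersion, which is shrunken and fitted differently, gave 8.13%.

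With the longest transcript as length, marker medians were 240 TPM for excitatory, 77.2 for inhibitory, 417 for astrocyte and 35.4 for microglia genes, and 180 for oligodendrocyte genes. Of 38 list sums 20 moved by more than 1 SD with that length. With a library left out, 7 means moved by more than 1.5 times: without library 3 those of the leukocyte sum (15.5 to 9.18 TPM), Ccl5, Cd74, Cd8a, Cxcl10 and Irf7, and without library 4 that of Igfn1 (9.49 to 4.17 CPM). Depth limits genes near 3 counts, such as Cd8a, and the low-count end of the 2-fold genes.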

Other observations

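Some genes outside the groups of the report also differed between libraries. Stx1a, a SNARE of the presynaptic membrane, stood at 96.2, 81.4, 108, 143 and 91.7 CPM, and its spread of 22.6% beyond counting was the largest in the synaptic vesicle list, whose median was 4.70%. Haemoglobin transcripts, a sign of blood left in the tissue, were present: Hbb-bs, an adult beta-globin gene, averaged 193 TPM and stood at 43.7, 31.3, 35.1, 36.3 and 30.2 CPM, highest in library 1. The endothelial gene Cldn5, a tight junction protein of the blood-brain barrier, stood at 28.5, 23.3, 25.4, 21.6 and 22.9 CPM, a 1.32-fold range.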
